A study of Homo sapiens with 13 samples.

Results

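Expression was examined for 9 genes of the machinery that commits a cell to divide or holds it back: MYC, MDM2, CDKN2A, CDKN1B, CCND2, CCND3, CDK4, CDK6 and RB1. They were taken by gene name from a table of RNA sequencing counts for 45744 genes, and each name matched 1 row. The counts come from HuT78, a cell line from Sézary syndrome, the leukaemic form of cutaneous T cell lymphoma. Cells of this single line were exposed for 72 h to 10 nM chaetocin, which gave 4 libraries, to 10 nM F5446, which gave 3, to 1 µM romidepsin, which gave 4, or to DMSO as vehicle, which gave 2. Chaetocin, a fungal product, inhibits histone methyltransferases of the SUV39H1 type, F5446 is known by its code name as a SUV39H1 inhibitor, and romidepsin inhibits histone deacetylases. The labels name no genetic change made to the line.

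In the passage from G1 to S phase, D-type cyclins such as CCND2 and CCND3 bind the kinases CDK4 and CDK6, and the complexes phosphorylate the retinoblastoma protein RB1, which then releases E2F transcription factors. CDKN2A encodes p16, which blocks CDK4 and CDK6, and, in another reading frame, p14ARF, which restrains MDM2, the ubiquitin ligase of p53. CDKN1B encodes p27, an inhibitor of cyclin and CDK complexes, and MYC is a transcription factor that promotes growth and division. Losses of CDKN2A, CDKN1B and RB1 and gains of MYC are known from Sézary cells.

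Libraries held 19901052 to 30816188 counts, and 17252 genes had enough of them to be tested. Levels are CPM, counts scaled to a common library size after normalisation. The error given is the SD between libraries. A gene was called where its edgeR quasi-likelihood p, adjusted over all tested genes by the Benjamini-Hochberg method, was under 0.05. The libraries carry replicate numbers: chaetocin and romidepsin 1 to 4, F5446 2 to 4, and DMSO 1 and 4. On the first principal component, which held 17.8% of the variance, libraries numbered 3 or 4 had positive scores and those numbered 1 or 2 negative ones, whatever the treatment. Chaetocin replicate 3 had by far the highest score, 112.7, and the other 12 ranged over -36.7 to 18.7. Mitochondrially encoded genes took 15.9% of its counts, against 5.22 to 12.7% in the others. Markers of T cells summed to 1065 to 1694 CPM, and 10 of the 11 that the table holds averaged at least 1 CPM. Markers of other cell types summed to 40.7 to 93.0 CPM for B cells, 1.55 to 4.76 for myeloid cells, 29.3 to 54.3 for fibroblasts and 104 to 168 for epithelial cells. An average of at least 1 CPM was reached by 3 of 5 B cell, 1 of 6 myeloid, 3 of 6 fibroblast and 5 of 6 epithelial markers. The myeloid markers CD68 and S100A8 had no count in any library. In bulk RNA, fewer cells with a transcript and less of it per cell cannot be told apart.

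The 9 genes were unevenly transcribed in HuT78. Of the 9 genes, 7 had enough counts to be tested, while CDKN2A had no count in any of the 13 libraries and RB1 had 71 counts in all. To compare genes with each other, CPM was divided by the length of the merged exons in kilobases. On that scale MYC led with 172 ± 15.7 CPM per kb in DMSO libraries (SD, n = 2), and CCND2, the more abundant of both D cyclins, followed with 81.6 ± 10.5. CDK4 stood at 25.2 ± 0.474, CDK6 at 17.9 ± 3.37 and CCND3 at 16.7 ± 1.34 CPM per kb. The inhibitor gene CDKN1B, at 10.9 ± 6.38, and MDM2, at 10.7 ± 1.39, were the lowest of the 7. RB1 came to 0.0300 ± 0.0424 CPM per kb, below each of these. The merged exons cover every annotated transcript, and which of them the line uses was not measured.

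None of the 7 tested genes was called for any compound against DMSO, or for chaetocin against F5446. That is also the background, since edgeR called 0% of the 17252 genes in each of these 4 comparisons. At an unadjusted p under 0.05, again 0 of the 7 passed in each, where 4.07% of all genes did for chaetocin against DMSO, 2.48% for F5446 against DMSO, 2.82% for romidepsin against DMSO and 3.40% for chaetocin against F5446. In genes, these shares are 703, 428, 487 and 587. DESeq2 called 6, 1, 1 and 2 genes in the same 4 comparisons and limma-voom called 1 gene for chaetocin against DMSO, with 0 of the 7 among them. In the fit with a block for replicate number, edgeR called 11 genes for chaetocin against F5446, again with 0 of the 7. The comparisons with DMSO share its 2 libraries, so they are not independent of each other.

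**Figure D1:**
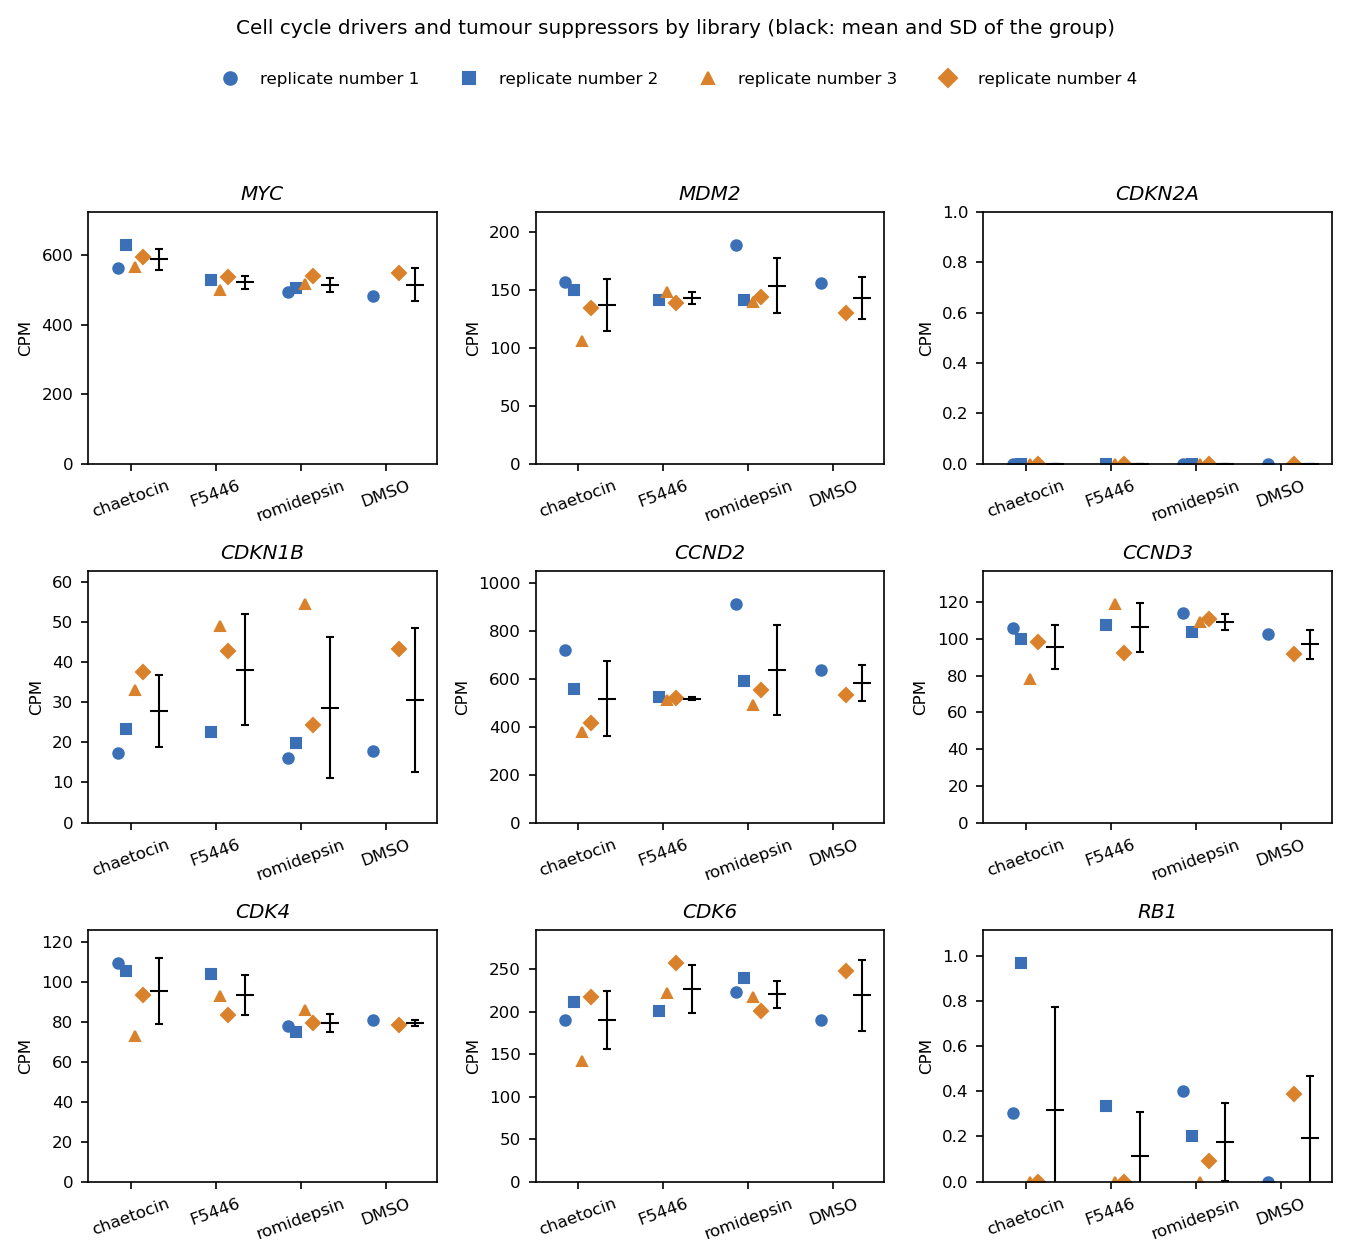
CPM of the 9 genes in each of the 13 libraries, by treatment on the horizontal axis, with marker shape and colour for the replicate number (blue for 1 and 2, orange for 3 and 4); black marks give the mean and SD of each group. The 4 chaetocin libraries of MYC lie above the other 9, the orange points of CDKN1B lie above the blue ones, CDKN2A is at 0 throughout and RB1 is below 1 CPM.

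MYC was the steadiest of the 7 genes. It stood at 563, 630, 568 and 594 CPM in chaetocin replicates 1 to 4, at 530, 500 and 537 in F5446 replicates 2 to 4, at 495, 505, 519 and 539 in romidepsin replicates 1 to 4, and at 482 and 549 in DMSO replicates 1 and 4. All 4 chaetocin libraries were above all 9 others, while the F5446, romidepsin and DMSO libraries overlapped. The coefficient of variation over the 13 libraries was 7.80%, and only 3.59% of the 10096 genes that averaged 5 CPM or more had a lower one, against a median of 16.3%. Those genes were not matched to MYC in level, and low counts alone raise this coefficient. The mean of MYC was 589 ± 30.7 CPM over chaetocin libraries (SD, n = 4) and 516 ± 47.2 over DMSO libraries (n = 2). The log2 fold change was 0.19 with a 95% confidence interval of -0.07 to 0.46, and the edgeR adjusted p was 1.

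A group of chaetocin libraries wholly above or below the other 9 occurred in 132 genes, 0.765% of those tested, and MYC was the 1 such gene of the 7. Against the DMSO pair alone 11.3% of genes did not overlap, and against F5446 alone 5.38% did not. MYC was the 1 such gene of the 7 in each. For MYC this follows from its place above all 9 others and is no separate result. Against F5446 the log2 fold change of MYC was 0.17 (95% confidence interval -0.06 to 0.41). Within sets of replicate numbers it was 0.16 for numbers 3 and 4. It was 0.17 for numbers 1 and 2, where F5446 has a single library, replicate 2. Against DMSO it was 0.08 for numbers 3 and 4 and 0.30 for numbers 1 and 2, each set resting on a single DMSO library. With F5446 and with romidepsin, MYC differed from DMSO by 0.02 (95% confidence interval -0.26 to 0.30) and -0.00 (-0.27 to 0.26) on the log2 scale.

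CDK4, the kinase partner of the D cyclins, stood at 110, 106, 72.9 and 93.4 CPM in chaetocin replicates 1 to 4 and at 104, 93.2 and 83.6 in F5446 replicates 2 to 4. It stood at 78.3, 74.9, 86.0 and 79.5 in romidepsin replicates 1 to 4 and at 80.9 and 78.7 in DMSO replicates 1 and 4. All 3 F5446 libraries and 3 of the 4 chaetocin libraries were above both DMSO libraries, chaetocin replicate 3 was the lowest of all 13, and of the romidepsin libraries 2 were below the DMSO pair, 1 was between both and 1 was above. The log2 fold change was 0.26 for chaetocin (95% confidence interval -0.07 to 0.59) and 0.23 for F5446 (-0.11 to 0.57), each with an edgeR adjusted p of 1. For romidepsin it was -0.00 (-0.33 to 0.32). Libraries of F5446 and DMSO did not overlap in 18.6% of genes, and 2 of the 7 genes, CDK4 and CCND2, were among them. Chaetocin and F5446, set against each other at the same dose and time, differed in CDK4 by 0.03 (-0.26 to 0.31).

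CDK4 is a known MYC target in human cells, and the bases upstream of its start are shown because they hold the motif that MYC and MAX recognise. Whether MYC acts on CDK4 in these cells was not tested. In the RefSeq table of promoters, build GRCh38.p14, the 250 bases before the CDK4 start are chr12:57752311-57752560 on the minus strand. They are printed 5′ to 3′ as reference sequence, not as read from HuT78, with each CACGTG in capitals.
CDK4: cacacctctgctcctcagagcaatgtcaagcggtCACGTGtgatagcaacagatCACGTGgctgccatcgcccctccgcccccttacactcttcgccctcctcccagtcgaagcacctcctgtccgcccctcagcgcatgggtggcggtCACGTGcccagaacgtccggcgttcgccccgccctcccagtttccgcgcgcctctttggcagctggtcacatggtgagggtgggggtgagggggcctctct
The palindrome CACGTG, the E-box, occurs 3 times. Of 35116 windows of the same length before RefSeq starts, 6.34% hold at least 1 and 28, or 0.0797%, hold 3 or more. None of the windows of CCND3, CDK6, CDKN1B, CDKN2A, MDM2 and RB1 in that table holds CACGTG on either strand. For RB1 the only window searched was chr13:48476200-48476449. It holds 0 CG dinucleotides, against a median of 11 over all windows, and other starts of RB1 were not searched. Whether this is the start that most RB1 transcripts use was not checked. The window therefore does not describe the RB1 promoter in general. The windows of MYC and CCND2 were not analysed here. The E2F motif TTTNNCGC, searched on both strands and found in 5.92% of windows, occurred once before the first starts of MDM2 and in no other window searched for these genes. A match is a run of letters only, and no binding was measured.

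The CDK4 count may be affected by neighbours on the other strand. In GENCODE 29, TSPAN31 and MARCH9 overlap CDK4 on the opposite strand, and over all libraries they had 3035 and 5987 counts, or 10.8% and 21.4% of the 27996 counts of CDK4. These are totals of whole genes and do not measure the shared part. Whether reads were counted by strand is not given in the sources used here; the origins of reads in the shared bases cannot be told apart.

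CDK6, the other kinase, stood at 191, 212, 142 and 217 CPM in chaetocin replicates 1 to 4, at 201, 222 and 258 in F5446 replicates 2 to 4, at 223, 240, 218 and 201 in romidepsin replicates 1 to 4, and at 190 and 248 in DMSO replicates 1 and 4. The groups overlapped, with the lowest value again in chaetocin replicate 3. Its log2 fold change was -0.20 for chaetocin (95% confidence interval -0.55 to 0.14), 0.05 for F5446 (-0.31 to 0.41) and 0.01 for romidepsin (-0.34 to 0.35). Between chaetocin and F5446 it was -0.25 (-0.56 to 0.05), the lowest unadjusted p of the 7 genes in these 4 comparisons at 0.0975. It was -0.13 without chaetocin replicate 3 and -0.15 without F5446 replicate 4. Within replicate numbers 3 and 4 that difference was -0.45, and within numbers 1 and 2, where F5446 has a single library, replicate 2, it was -0.00.

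The balance of the kinases, CDK6 over CDK4 per length, was 0.518 ± 0.0633 with chaetocin (SD, n = 4), 0.637 ± 0.149 with F5446 (n = 3), 0.718 ± 0.0818 with romidepsin (n = 4) and 0.711 ± 0.147 with DMSO (n = 2). The chaetocin libraries, at 0.449 to 0.602, were all below the DMSO libraries, at 0.607 to 0.815. That difference of -0.193 had an exact two-sided permutation p of 0.0667, the smallest that 4 against 2 libraries can give, and 0.533 after adjustment over 8 tests of ratios. The ratio of CCND2 to CCND3 per length averaged 4.34 with chaetocin, 3.999 with F5446, 4.70 with romidepsin and 4.87 with DMSO, with adjusted exact permutation p-values of 0.610 to 0.933 over its 4 comparisons. Both ratios are free of library size. The smallest p that these permutation tests can give is 0.0667 for 4 against 2 libraries, 0.1 for 3 against 2 and 0.0286 for 4 against 3. None could therefore pass after adjustment over 8 tests, and their outcome decides nothing about the ratios.

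CCND2 and CCND3 encode the D cyclins measured here. CCND2 stood at 721, 557, 377 and 414 CPM in chaetocin replicates 1 to 4, at 523, 510 and 521 in F5446 replicates 2 to 4, at 914, 593, 490 and 552 in romidepsin replicates 1 to 4, and at 638 and 531 in DMSO replicates 1 and 4. Chaetocin and romidepsin libraries each spread widely around the DMSO pair, and the 3 F5446 libraries lay close together just below it. F5446 has no replicate 1, the number with the highest CCND2 level in each of the other groups. The SD was 156 CPM over the chaetocin libraries and 189 over the romidepsin libraries, against 6.70 over the F5446 libraries and 75.3 over the DMSO libraries. The log2 fold change was -0.18 for chaetocin (95% confidence interval -0.69 to 0.34), -0.17 for F5446 (-0.72 to 0.37) and 0.13 for romidepsin (-0.40 to 0.65), and it was -0.00 (-0.46 to 0.45) for chaetocin against F5446. With a block for replicate number it was -0.062, 0.14 and 0.24 for chaetocin, F5446 and romidepsin against DMSO. For chaetocin against F5446 the blocked fit gave -0.20.

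CCND3 varied less. It stood at 106, 99.7, 78.0 and 98.4 CPM in chaetocin replicates 1 to 4, at 107, 119 and 92.2 in F5446 replicates 2 to 4, at 114, 104, 109 and 111 in romidepsin replicates 1 to 4, and at 103 and 91.6 in DMSO replicates 1 and 4. All 4 romidepsin libraries were above both DMSO libraries, narrowly, and the other groups overlapped with DMSO. Romidepsin and DMSO libraries did not overlap in 10.3% of genes, and CCND3 was the 1 such gene of the 7. Its log2 fold change there was 0.17 (95% confidence interval -0.13 to 0.48), with an edgeR adjusted p of 1. For chaetocin it was -0.02 (-0.33 to 0.28), for F5446 0.13 (-0.19 to 0.45), and for chaetocin against F5446 -0.15 (-0.42 to 0.11).

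**Figure D2:**
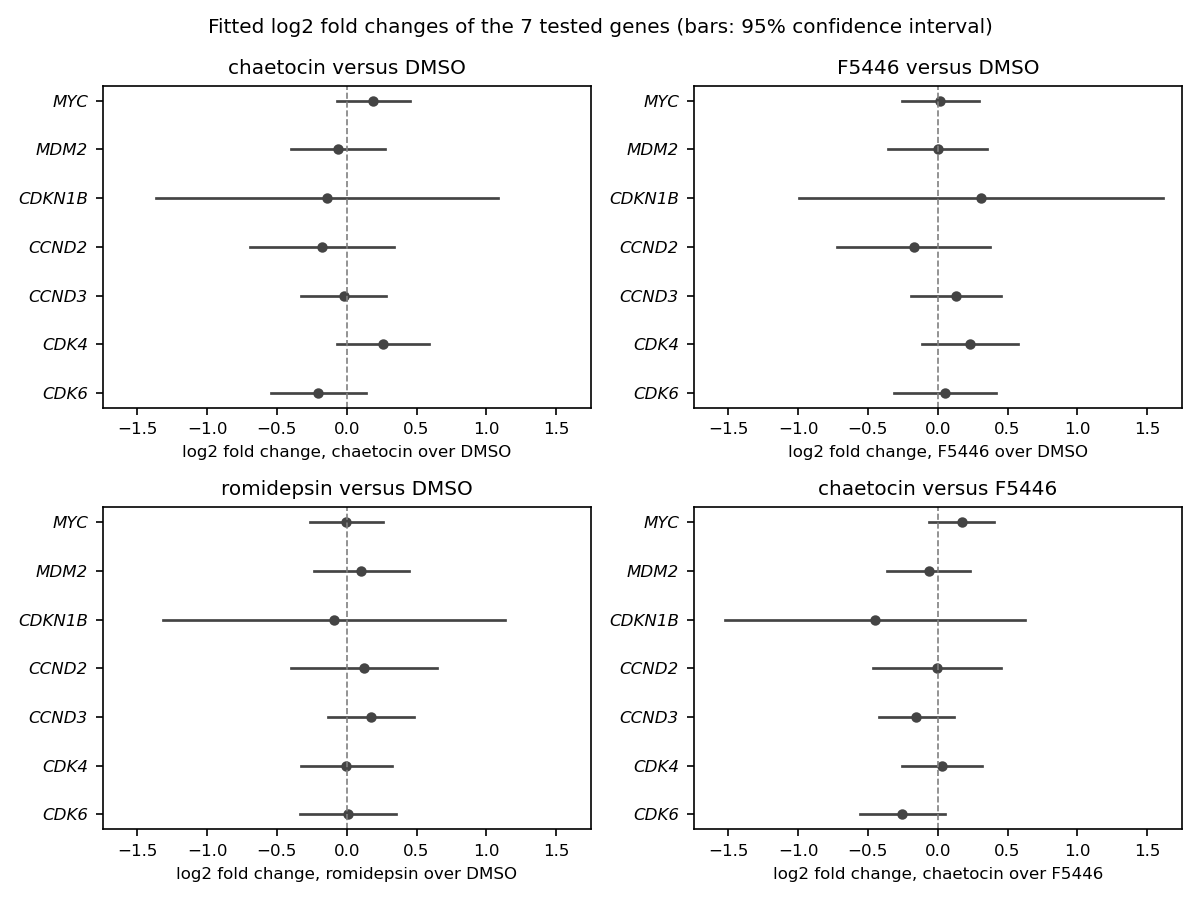
Fitted log2 fold changes (horizontal axis) of the 7 tested genes in the 4 comparisons, with lines for the 95% confidence interval and a dashed line at no difference. Every interval crosses 0, and those of CDKN1B are the widest, from -1.36 to 1.08 for chaetocin against DMSO. The fit had a term for group and none for replicate number.

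CDKN1B, the gene of p27, was the most variable of the 7, with a coefficient of variation of 42.7% over the 13 libraries, higher than in 98.5% of the genes that averaged 5 CPM or more. It stood at 17.4, 23.4, 33.0 and 37.4 CPM in chaetocin replicates 1 to 4, at 22.5, 49.0 and 42.8 in F5446 replicates 2 to 4, at 16.0, 19.9, 54.6 and 24.2 in romidepsin replicates 1 to 4, and at 18.0 and 43.3 in DMSO replicates 1 and 4. In every group the libraries numbered 3 or 4 were above those numbered 1 or 2, and the groups overlapped. The log2 fold change was -0.14 for chaetocin (95% confidence interval -1.36 to 1.08), 0.31 for F5446 (-0.99 to 1.62) and -0.09 for romidepsin (-1.32 to 1.13), and it was -0.45 (-1.53 to 0.62) for chaetocin against F5446. The choice of DMSO library set its sign for each compound. With DMSO replicate 4 left out it was 0.63 for chaetocin, 1.08 for F5446 and 0.68 for romidepsin, and with DMSO replicate 1 left out it was -0.64, -0.20 and -0.59. With a block for replicate number it was -0.24, -0.057 and -0.29 in the same order, and -0.19 for chaetocin against F5446. The intervals above come from the fit with group alone, so differences between replicate numbers are part of their spread.

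CDKN2A, the gene of p16 and p14ARF, had 0 counts in each of the 4 chaetocin, 3 F5446, 4 romidepsin and 2 DMSO libraries. A count of 0 allows up to 3 counts, which is 0.0939 to 0.150 CPM per library, for counting error only. It was therefore not tested, and no compound brought it above that limit. The bases before its starts are shown because this is the gene of the 9 with no transcript counted. RefSeq, build GRCh38.p14, gives 2 starts, with the preceding 250 bases at chr9:21995325-21995574 and chr9:21974858-21975107 on the minus strand. Both are reference sequence printed 5′ to 3′, with each CG, the dinucleotide that DNA methylation marks, in capitals.
CDKN2A, upstream start: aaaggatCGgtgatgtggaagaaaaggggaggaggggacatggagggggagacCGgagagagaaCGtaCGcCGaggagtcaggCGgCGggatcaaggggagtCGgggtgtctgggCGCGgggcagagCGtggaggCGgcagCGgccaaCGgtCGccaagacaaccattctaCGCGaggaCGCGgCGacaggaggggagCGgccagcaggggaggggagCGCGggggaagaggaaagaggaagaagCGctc
CDKN2A, downstream start: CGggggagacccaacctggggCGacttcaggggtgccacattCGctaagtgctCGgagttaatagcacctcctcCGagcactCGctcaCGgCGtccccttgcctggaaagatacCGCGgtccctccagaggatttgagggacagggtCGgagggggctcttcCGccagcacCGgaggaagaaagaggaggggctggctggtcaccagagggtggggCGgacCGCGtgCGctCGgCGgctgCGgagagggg
The windows hold 24 and 20 CG dinucleotides, against a median of 11 over the 35116 windows. No methylation was measured in these cells.

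The genes beside CDKN2A were also at or near 0. They were looked up after its counts had been seen, as the 6 protein-coding genes on each side in the RefSeq order. CDKN2B, which encodes the related inhibitor p15, and IFNE, IFNA1, IFNA8 and IFNA2, which encode interferons, had 0 counts in all libraries. MTAP, an enzyme of methionine salvage that most tissues express, had 10 counts, all in 1 library. IFNA13, DMRTA1, ELAVL2, IZUMO3 and TUSC1 had 5 to 18 counts in all. CAAP1, the last of the 6 on the far side, was the 1 tested gene of the 12 neighbours and was counted in all 13 libraries, at 27.04 ± 3.13 CPM (SD, n = 13). Gene copy number was not measured.

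RB1, the retinoblastoma protein that CDK4 and CDK6 phosphorylate, had 7, 31, 0 and 0 counts in chaetocin replicates 1 to 4, 10, 0 and 0 in F5446 replicates 2 to 4, 9, 4, 0 and 2 in romidepsin replicates 1 to 4, and 0 and 8 in DMSO replicates 1 and 4. It was at 0 in 6 of the 13 libraries, and each group held at least 1 of them. Chaetocin replicate 2 alone gave 31 of the 71 counts. Libraries numbered 3 or 4 had 10 of these counts and those numbered 1 or 2 had 61. Being below the limit for testing, RB1 has no fold change here.

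Around RB1, 10 of the 12 neighbours were tested genes counted in every library, against 1 of 12 around CDKN2A. On one side ITM2B averaged 120 ± 18.8 CPM and MED4 38.0 ± 4.32 (SD, n = 13), and on the other LPAR6, which lies within RB1 on the opposite strand in GENCODE 29, averaged 4.36 ± 1.88 and RCBTB2 5.30 ± 1.49. LPAR6 had 1367 counts over all libraries, against 71 for the gene that contains it. Of the 12 neighbours, HTR2A and MLNR, which encode receptors for serotonin and motilin, were at 0. The reads behind the few counts given to RB1 and those of its antisense neighbours cannot be told apart without the strand setting.

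**Figure D3:**
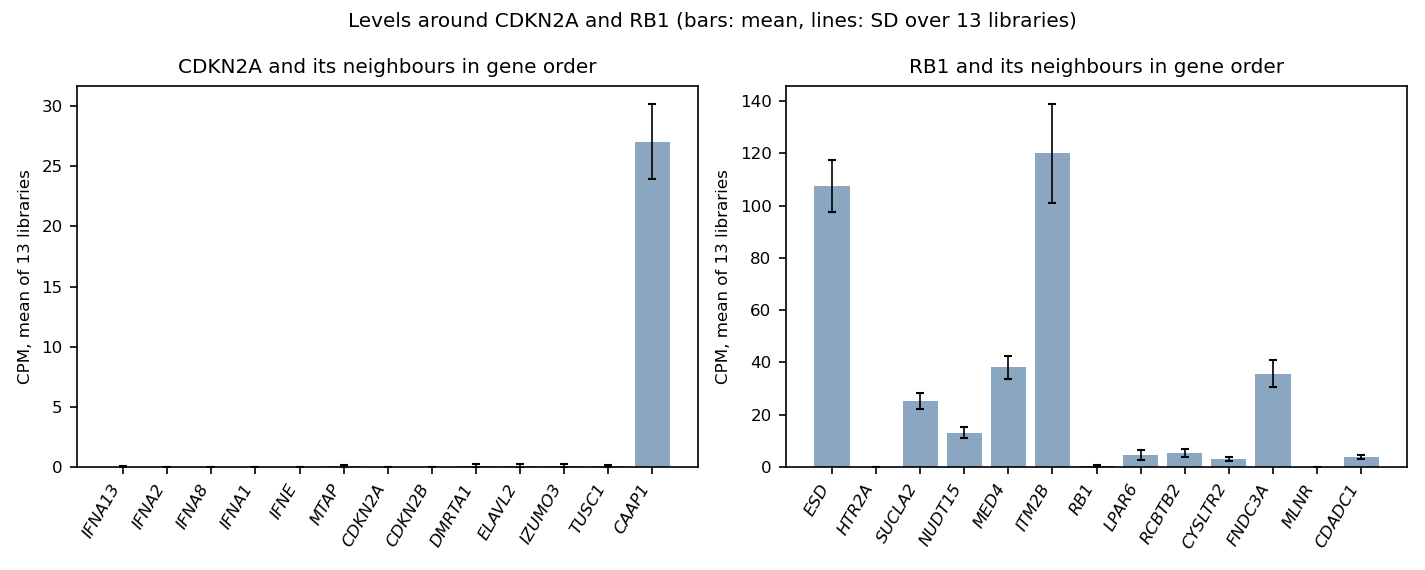
Mean CPM over the 13 libraries (bars, with lines for the SD) of CDKN2A, left, and RB1, right, each among its 6 nearest protein-coding neighbours on either side in gene order. Around CDKN2A only CAAP1, at 27.04 CPM, rises above the axis, while RB1 is a gap between ITM2B at 120 and LPAR6 at 4.36.

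MDM2, the ubiquitin ligase that holds p53 down and is itself a p53 target, stood at 156, 149, 106 and 134 CPM in chaetocin replicates 1 to 4, at 141, 148 and 138 in F5446 replicates 2 to 4, at 189, 141, 140 and 144 in romidepsin replicates 1 to 4, and at 156 and 130 in DMSO replicates 1 and 4. All groups overlapped, and romidepsin replicate 1 stood above the other libraries. The log2 fold change was -0.06 for chaetocin (95% confidence interval -0.40 to 0.27), -0.00 for F5446 (-0.36 to 0.35) and 0.10 for romidepsin (-0.23 to 0.44), and it was -0.06 (-0.36 to 0.23) for chaetocin against F5446. The carboxypeptidase gene CPM, which overlaps MDM2 on the opposite strand, had 5.57% as many counts as MDM2.

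Ordered by group mean, the 7 tested genes give 21 pairs of neighbouring groups, and in 2 of them the gap was larger than the larger SD of the pair. These were the gap of MYC between chaetocin and F5446, at 2.16 SD, and that of CDK4 between F5446 and DMSO, at 1.35 SD. The chaetocin mean was the highest of the 4 groups for MYC and CDK4 and the lowest for MDM2, CDKN1B, CCND2, CCND3 and CDK6. For 3 of these 5 the place at the bottom rested on chaetocin replicate 3. Without it the chaetocin mean was 147 ± 11.3 CPM for MDM2 (SD, n = 3), above F5446 and DMSO, 564 ± 153 for CCND2, above F5446, and 101 ± 4.16 for CCND3, above DMSO. The median absolute log2 fold change of the 7 was 0.18 for chaetocin, 0.13 for F5446 and 0.09 for romidepsin against DMSO, and over all genes tested it was 0.22, 0.21 and 0.19.

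Between libraries of different replicate number, 2 of these genes differed. The division into numbers 3 and 4 against 1 and 2 was chosen after the first principal component of the same libraries had been seen, so its p-values describe these libraries and are not an independent test. With treatment kept in the model, edgeR called 15.8% of all genes between the sets, 8.07% higher and 7.69% lower in numbers 3 and 4. Of the 7 genes, CDKN1B was called higher and CCND2 lower.

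CDKN1B ran from 24.2 over a median of 42.8 to 54.6 CPM in the 7 libraries numbered 3 or 4, and from 16.0 over a median of 18.9 to 23.4 CPM in the 6 numbered 1 or 2. The sets did not overlap, which held for 5.49% of all genes and for 1 of the 7. The means were 40.6 ± 10.1 and 19.5 ± 2.93 CPM (SD, n = 7 and 6), with a log2 difference of 1.02 (95% confidence interval 0.71 to 1.34) and an edgeR adjusted p of 9.82e-05. With any 1 of the 13 libraries left out it ranged over 0.85 to 1.12, and it was called each time.

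CCND2 had a lowest, median and highest level of 377, 510 and 552 CPM in numbers 3 and 4, and of 523, 615 and 914 CPM in numbers 1 and 2. The means were 485 ± 65.1 and 657 ± 143 CPM (SD, n = 7 and 6). The sets overlapped between 523 and 552 CPM, and the log2 difference was -0.44 (95% confidence interval -0.66 to -0.21; edgeR adjusted p 0.00754). It ranged over -0.54 to -0.34 with 1 library left out and was called each time. MDM2, at 134 ± 13.9 and 156 ± 17.5 CPM, had a log2 difference of -0.22 (-0.39 to -0.05) and an edgeR adjusted p of 0.0749. It was called without F5446 replicate 2 (-0.28, adjusted p 0.0447) and without romidepsin replicate 2 (-0.28, adjusted p 0.0248). CDK4, CCND3, MYC and CDK6 differed by -0.14, -0.10, 0.04 and 0.02 and were not called.

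**Figure D4:**
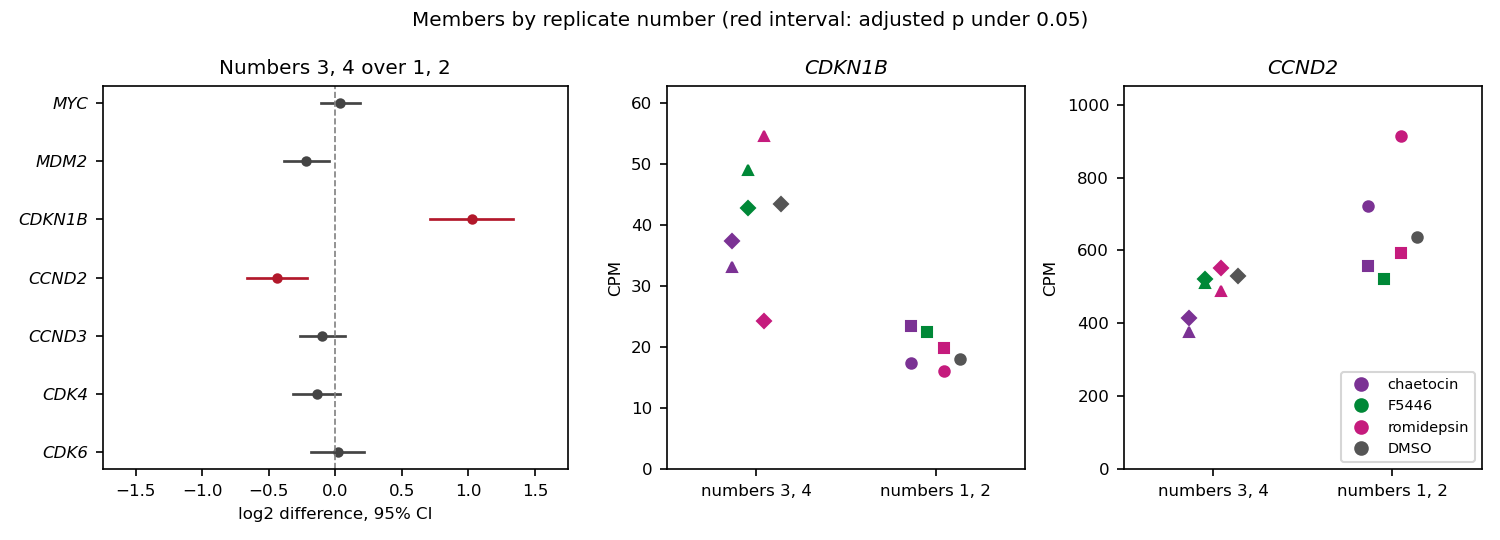
Left, log2 difference between libraries numbered 3 or 4 and those numbered 1 or 2 for the 7 tested genes, with lines for the 95% confidence interval, red where the adjusted p was under 0.05. Middle and right, CPM of CDKN1B and CCND2 in each library by set, coloured by treatment. CDKN1B at numbers 3 and 4 lies at 24.2 CPM or above, over every library numbered 1 or 2, while the CCND2 sets overlap.

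The mitochondrial share was lower in most libraries numbered 3 or 4, at 5.22 to 8.90% apart from chaetocin replicate 3 with 15.9%. In numbers 1 and 2 the share was 8.75 to 12.7%, so the sets overlapped. Its part in the differences was not tested. The labels do not say what the replicate number stands for.

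The partners of these genes were described with 8 lists of 5 to 31 tested genes: G1/S cyclins, kinases and activators, other CDK inhibitors, the RB and E2F family, E2F target genes, p53 regulators and targets, MYC partners and relatives, p27 turnover, and regulators of D cyclins and CDK4/6. None of their genes was called in the 4 comparisons of treatments. By unadjusted p, 0 to 2 genes of a list passed in any of them. Over all genes 50.97% had a log2 fold change above 0 for chaetocin against DMSO, 51.2% for F5446 and 50.99% for romidepsin, with a median of 0.01 in each. The median log2 fold change of E2F targets against DMSO was 0.10 for chaetocin, with 23 of 31 above 0, 0.04 for F5446, with 20 above 0, and -0.01 for romidepsin, with 14 above 0. G1/S genes had medians of 0.10, 0.18 and 0.05 for chaetocin, F5446 and romidepsin, with 10, 11 and 10 of 14 above 0. In the same order of compounds, the genes above 0 were 3, 4 and 4 of 5 other CDK inhibitors, 11, 11 and 8 of 16 in the RB and E2F family, and 7, 6 and 3 of 9 in p27 turnover. They were 9, 17 and 12 of 27 in the p53 list, with medians of -0.04, 0.05 and -0.05, 10, 9 and 6 of 19 MYC partners, with medians of 0.01, -0.00 and -0.13, and 4, 4 and 3 of 8 regulators of D cyclins. Most lists lay above the share over all genes for chaetocin and F5446, and most lay below it for romidepsin. The lists share genes and the comparisons share the DMSO libraries, and no list was tested as a set.

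Among the partners, PKMYT1, the kinase that holds CDK1 inactive, was at 24.7 ± 1.25 CPM with chaetocin (SD, n = 4), 20.3 ± 1.04 with F5446 (n = 3), 18.9 ± 2.33 with romidepsin (n = 4) and 14.6 ± 1.34 with DMSO (n = 2). Its log2 fold change was 0.76 for chaetocin (95% confidence interval 0.36 to 1.16; edgeR adjusted p 0.636), 0.48 for F5446 and 0.37 for romidepsin, and none was called. E2F1, the transcription factor that RB1 holds in check, averaged 34.3 ± 3.99 CPM with chaetocin and 33.8 ± 3.63 with F5446, against 23.4 ± 1.70 with DMSO, with log2 fold changes of 0.55 and 0.53 that were not called. In the p53 list, CDKN1A, the gene of p21, was low throughout, at 1.60 ± 0.498 CPM with chaetocin, 1.4965 ± 1.05 with F5446, 3.34 ± 1.02 with romidepsin and 2.34 ± 1.20 with DMSO. RRM2B, a ribonucleotide reductase subunit, had a log2 fold change of -0.52 for chaetocin and -0.42 for romidepsin, and TP53I3 had 1.10, 0.90 and 1.28 for chaetocin, F5446 and romidepsin, none called. In p27 turnover the lowest p was that of CKS1B, the cofactor of the p27 ubiquitin ligase, with 0.43 for F5446 on the log2 scale. MNT, a repressor that pairs with MAX, averaged 38.3 ± 8.42 CPM with chaetocin, 28.5 ± 2.34 with F5446, 29.7 ± 3.98 with romidepsin and 36.7 ± 9.33 with DMSO. CDC37, the chaperone partner that loads CDK4, averaged 103 ± 11.3 CPM with chaetocin, 87.1 ± 7.37 with F5446, 89.8 ± 3.96 with romidepsin and 100.5 ± 19.98 with DMSO, and neither gene was called.

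Between the sets of replicate numbers, edgeR called 8.07% of all genes higher and 7.69% lower in numbers 3 and 4. The p53 list had 11 of 27 genes called higher and 2 called lower in numbers 3 and 4, with a median of 0.31, against -0.03 over all genes. Those higher included CCNG1, at 176 ± 30.4 CPM in numbers 3 and 4 and 115 ± 19.2 in numbers 1 and 2, TP53INP1, with a log2 difference of 0.92, BTG2, an antiproliferative gene, with 0.69, the death receptor FAS, with 0.44, and MDM4, the relative of MDM2, with 0.31. AEN, an exonuclease, and BAX, which permeabilises mitochondria, were lower, with -0.65 and -0.45. The other 14 tested genes of the list were not called. Of the p27 turnover list, 2 of 9 genes were lower and none higher. They were SKP2, the subunit that recognises p27 for degradation, with -0.50 (65.6 ± 4.92 and 93.8 ± 13.7 CPM), and UBAC1, with -0.31.

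The other lists are set against the same 8.07% higher and 7.69% lower, 15.8% in all, and counts of 1 or 2 genes are a description only. Of 14 G1/S genes, WEE1 and CCNA2 were higher, with 0.39 and 0.34, and CCNE1 and CCNE2, the E cyclins, were lower, with -0.54 and -0.44. Of 31 E2F targets, 7 were higher, among them the licensing factor CDT1 with 0.52 and ORC1 with 0.42, and 4 were lower, among them POLA1 with -0.43. The lists share genes: the 7 include E2F2 of the RB and E2F family, and the 4 include CCNE1 and CCNE2 of the G1/S genes. Of the other CDK inhibitors, CDKN2D, the gene of p19, was the 1 of 5 called, at 46.1 ± 9.66 and 22.3 ± 7.41 CPM, a log2 difference of 1.00. It was also the 1 of 8 called among regulators of D cyclins and CDK4/6, which share it. In the RB and E2F family E2F2 was higher, with 0.27, and E2F4 lower, with -0.28, of 16. Among 19 MYC partners, the MAX-binding repressors MXD3 and MXI1 were higher, with 1.18 and 0.90, and MAX and MXD4 lower, with -0.46 and -0.61. Without chaetocin replicate 3 the counts higher and lower were 11 and 2 for the p53 list, 0 and 3 for p27 turnover, 3 and 2 for G1/S genes, 8 and 5 for E2F targets and 2 and 0 for the RB and E2F family, and those of the other 3 lists were as before. The same setting called 8.70% of 17027 genes higher and 8.32% lower.

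For each of the 7 genes, the 3 genes with the highest Pearson r of log2 CPM over the 13 libraries were found among those that averaged 5 CPM or more. Libraries of the same replicate number deviate together across genes, and the values are descriptions. CDKN1B lay closest to ARRDC3, with r of 0.98, MAPK8IP3 and NUCKS1, both with 0.96. MYC had DVL1 at 0.91, BSN at 0.87 and ITGB8 at 0.80. CCND2 had EFR3A, UGGT1 and CCDC88B at 0.94, and MDM2 had USP38 at 0.95, BZW1 at 0.94 and PRKD3 at 0.92. CDK4 had RABL6 at 0.92, EXOSC5 at 0.89 and TTLL12 at 0.88, CDK6 had CPOX at 0.94, RC3H2 and LRBA, both at 0.91, and CCND3 had STRADB at 0.89, SIKE1 and FANCI, both at 0.86. By rank correlation, 2 of the 3 remained for MYC and CDK4, 1 for CDKN1B, CCND2, CCND3 and CDK6, and 0 for MDM2. Without chaetocin replicate 3, 2 of the 3 remained for MYC, MDM2 and CCND2, 1 for CDKN1B, CDK4 and CDK6, and 0 for CCND3.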

How the data were processed

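RNA of 13 HuT78 libraries was sequenced. The authors deposited counts of reads per gene, in whole numbers and not normalised. Per the submitters' processing notes, bcl2fastq 2.20.0.422, cutadapt 1.8.1, HTSeq 0.6.1 and hg19 were used; no aligner, annotation or strand setting is given in those notes or the labels. Treatment tags of the F5446 libraries differ in the last digit while their titles agree, and titles were used. The labels do not say that replicates are separate cultures, so the spread that the p-values rest on may be technical. All per-library columns were used.

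Genes were filtered by edgeR's rule and the 13 libraries entered 1 fit with a term for group (edgeR 4.0.16, R 4.3.3, TMM factors, robust quasi-likelihood test, two-sided, Benjamini-Hochberg over 17252 genes, threshold 0.05, 95% confidence intervals). Log2 CPM used a prior count of 2. The fit by replicate number had group and set as terms. Alternatives were DESeq2 1.42.0, limma-voom (limma 3.58.1), other scalings and filters, the compared groups alone, a block for replicate number, a term for its sets, and each library left out in turn. The pipeline was tested on simulated data. Exon lengths and overlaps came from GENCODE 29 and were used without coordinates. Genes and lists were chosen with earlier results of these data known. All 9 genes are named; from each list, named genes are among those called or, where none was, among the 3 with the smallest p in a comparison. Markers of 1 further cell type are not reported here. Figures were drawn with matplotlib 3.10.9.

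Replicate numbers were checked for pairing by correlating deviations from group means over 8685 genes that averaged 10 CPM or more. Correlations were 0.488 and 0.520 for chaetocin with DMSO, 0.550 for the 1 pair of F5446 with DMSO, 0.470 and 0.306 for romidepsin with DMSO, and 0.445, 0.190 and 0.401 for chaetocin with F5446, where all 3 pairs were above 0.1 and the numbers were taken to pair the libraries.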

Additional observations from a re-analysis of the deposited data

Results flagged for a closer look

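MDM2 in romidepsin replicate 1 stood far from the other 3 romidepsin libraries, at 188.7 CPM; its gap to the nearest of them was 0.909 of the range of the group. It was the 1 such value among 16 groups of 4 libraries examined, and chance alone marks about 1 group in 20.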

How the results depend on the processing

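None of the 7 genes was called in the 4 comparisons of treatments under any alternative, and their smallest adjusted p over all of these was 0.771. Of 252 log2 fold changes under settings that kept all libraries, 232 kept their direction and 20 changed it, 12 of them without the block. Of 168 with a library left out, 38 changed direction. Where 1 DMSO library remained, it was assumed to vary as the other groups do. RB1 and CDKN2A had too few counts to be tested, and each comparison with DMSO rests on its 2 libraries. The causes of these changes were not tested.

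The count of all genes called was 0 in each comparison and was moved by several settings. For chaetocin against DMSO it was 6 with DESeq2, 1 with limma-voom, 9 without a filter, 7 with a term for the sets of replicate numbers, and 0 to 2 with 1 library left out. F5446 against DMSO gave 1 with DESeq2. Romidepsin against DMSO gave 1 with DESeq2, 5 without a filter and 1 with the set term. Chaetocin against F5446 gave 2 with DESeq2, 9 without a filter and 5 with the set term. With the block for replicate number, 10, 1 and 11 genes were called for chaetocin against DMSO, romidepsin against DMSO and chaetocin against F5446. The block changed no call of the 7 genes.

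In the blocked fit the log2 fold change turned to 0.021 for MDM2 and 0.0038 for CCND3 with chaetocin against DMSO, to -0.012 for MYC, 0.18 for MDM2, -0.057 for CDKN1B and 0.14 for CCND2 with F5446 against DMSO, to 0.011 for CDK4 with romidepsin against DMSO, and to -0.0014 for CDK4 with chaetocin against F5446. CCND2 for chaetocin against F5446 turned to 0.0075 with DESeq2 and with RLE factors, 0.019 with upper-quartile factors, 0.012 without a filter, 0.0086 with a filter at 5 CPM and 0.0089 with the 2 groups alone. For F5446 against DMSO, MDM2 turned to 0.0051 with limma-voom and 0.045 with the set term, and MYC to -0.012 with upper-quartile factors and -0.0017 with the filter at 5 CPM. For romidepsin against DMSO, CDK4 turned to 0.0011 with upper-quartile factors and 0.0015 with the set term.

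With 1 library left out in turn, the log2 fold changes that changed direction ranged as follows. For chaetocin against DMSO, they were -0.19 to 0.077 for MDM2, -0.64 to 0.63 for CDKN1B, -0.10 to 0.065 for CCND3 and -0.38 to 0.0046 for CDK6. For F5446 against DMSO, they were -0.082 to 0.12 for MYC, -0.12 to 0.13 for MDM2, -0.20 to 1.08 for CDKN1B and -0.14 to 0.26 for CDK6. For romidepsin against DMSO, they were -0.095 to 0.093 for MYC, -0.022 to 0.24 for MDM2, -0.61 to 0.68 for CDKN1B, -0.10 to 0.26 for CCND2, -0.041 to 0.027 for CDK4 and -0.17 to 0.21 for CDK6. For chaetocin against F5446, they were -0.13 to 0.049 for MDM2, -0.21 to 0.13 for CCND2 and -0.047 to 0.15 for CDK4. Others kept their direction but moved by over 1.5 times. For chaetocin against DMSO, CCND2 ranged over -0.38 (without chaetocin replicate 1) to -0.034 (without DMSO replicate 1) and MYC over 0.10 (without DMSO replicate 1) to 0.29 (without DMSO replicate 4). For F5446 against DMSO, CCND2 ranged over -0.30 (without DMSO replicate 4) to -0.045 (without DMSO replicate 1), CCND3 over 0.041 (without F5446 replicate 3) to 0.22 (without F5446 replicate 4) and CDK4 over 0.15 (without F5446 replicate 2) to 0.30 (without F5446 replicate 4). CCND3 for romidepsin against DMSO ranged over 0.093 (without DMSO replicate 4) to 0.26 (without DMSO replicate 1). For chaetocin against F5446, CDKN1B ranged over -0.72 (without F5446 replicate 2) to -0.23 (without F5446 replicate 3), CCND3 over -0.25 (without F5446 replicate 4) to -0.059 (without chaetocin replicate 3) and CDK6 over -0.33 (without F5446 replicate 2) to -0.13 (without chaetocin replicate 3). Between the sets of replicate numbers, MYC ranged over 0.0015 to 0.064, CCND3 over -0.14 to -0.050 and CDK4 over -0.19 to -0.077. CDK6 changed direction there, ranging over -0.060 to 0.10, and the number of genes called ranged over 2060 to 2898, against 2719 with all libraries, 3134 with DESeq2 and 2735 with limma-voom.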
